A study of Mus musculus with 3 samples.

Results

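The genes described here are 10 members of the machinery that places, reads and removes N6-methyladenosine (m6A), a methyl mark on adenosines inside messenger RNA. They were chosen by name: the writers Mettl3, Mettl14, Mettl16 and Wtap, the readers Ythdf1, Ythdf2, Ythdf3 and Ythdc1, and the erasers Alkbh5 and Fto. All 10 symbols were found among the 32285 genes that each library lists, and all 10 passed the minimum mean of 10 CPM used for the comparisons, as did 7884 genes in all. CPM is a gene's share of the counts of its library, scaled to a fixed total. The lowest member mean was 15.1 CPM.

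The data are droplet single-cell RNA counts from E14 cells, a line of mouse embryonic stem cells on a 129/Ola background, kept in serum with leukaemia inhibitory factor. Tubercidin, an adenosine analogue with a carbon in place of a ring nitrogen of the base, was given at 10 uM for 3 h in one library and for 6 h in another, and the control library comes from cells left with the solvent DMSO for 6 h. The labels name no genetic change in any group. The ratios at 3 h and at 6 h share the control library. With 1 library for each group, the spread between cultures is unknown, and none of the differences described here was tested. Intervals are exact, at the 95% level, and cover the counting of unique molecular identifiers (UMIs, 1 per captured molecule) but nothing else.

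In the writer complex METTL3 is the catalytic subunit, METTL14 is its partner that helps hold the RNA, and WTAP carries the pair to nuclear speckles. METTL16 acts apart from them on a small set of structured RNAs, among them the messenger of Mat2a, the enzyme that makes the methyl donor S-adenosylmethionine. The YTHDF proteins read the mark in the cytoplasm and promote decay of marked messengers, YTHDC1 reads it in the nucleus, and ALKBH5 and FTO are demethylases. In embryonic stem cells m6A is known for limiting the lifetime of transcripts that hold the pluripotent state.

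Mat2a is described as a target of METTL16, so the copies of the METTL16 motif in this transcript are shown first. In the longest 3′ UTR of Mat2a in GENCODE M21 (GRCm38, the assembly also called mm10; gene at chr6:72432799-72439558, minus strand), the letters TACAGAGAA occurred 5 times. Each line gives the motif in capitals with its flanks, 5′ to 3′, in DNA letters.
Mat2a site 1: tggcgtaggtTACAGAGAAgccttcaagct
Mat2a site 2: ccttgtgataTACAGAGAAgtcacagggca
Mat2a site 3: ctggtgtagcTACAGAGAAaccagcttcct
Mat2a site 4: atggcgtaagTACAGAGAAgccatcacctc
Mat2a site 5: gctggtgtggTACAGAGAAgccagcttgtt
The search ran on the transcript strand only. Of 21028 genes with a 3′ UTR, 504 (2.40%) held the motif at all and Mat2a alone held it 5 times. The 3′ UTRs of the 10 members held 0 copies. A match is a description of letters and not of methylation, which these data do not measure.

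The control held 2031 called cells, the 3 h library 2365 and the 6 h library 2926. These cells carried 104892739, 29892000 and 24681924 UMIs, and the median cell had 48452, 11877 and 8004.5 UMIs. Mitochondrial genes took 2.95%, 3.43% and 2.87% of these UMIs. How much of the gap in UMIs per cell is depth and how much is RNA content cannot be told apart here, so levels are given as CPM, a share of each library's total. Of the called barcodes, 1 was shared within each pair of libraries. The 6 stem cell markers summed to 3783 CPM in the control, 4424 CPM after 3 h and 3256 CPM after 6 h, whereas the highest sum for any other type was 9.72 CPM, for 5 primitive endoderm markers at 6 h. Dppa5a made up most of the stem cell sum, at 2549, 3555 and 2263 CPM, and the other markers did not follow it. Pou5f1 and Esrrb had higher CPM in both treated libraries than in the control, and Nanog, Zfp42 and Sox2 lower. Sox2 had 205 CPM in the control against 80.6 and 81.1 CPM, 2.52-fold and 2.51-fold lower. The 4 markers of 2-cell-like cells summed to 0.0286, 0 and 0.891 CPM, and 2, 4 and 1 of them were at 0. The 5 fibroblast markers summed to 0.915, 1.37 and 2.07 CPM and the 5 trophoblast markers to 1.63, 1.24 and 1.38 CPM, so the sum of each of these lists lay below the level of any member. Lum was at 0 in the control and at 6 h, and Sox17, Col1a2 and Hand1 at 6 h.

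In control cells the members spanned a wide range. A UMI stands for 1 captured molecule, so these levels were not divided by length. Whether intronic reads were counted is not given in the sources used here, so whether gene length bears on these levels is not known. Fto spans 354.9 kb, far more than any other member. The efficiency of capture per gene is not known either. Ythdc1 led at 194 CPM, followed by Mettl16 at 155 CPM and Fto at 115 CPM. Ythdf2, Wtap and Ythdf1 came next at 78.7, 77.1 and 77.1 CPM, and the counting intervals of these neighbours overlapped. Ythdf3 stood at 67.6 CPM and Alkbh5 at 35.5 CPM. The core pair was lowest, with Mettl3 at 21.7 CPM (interval 20.8 to 22.6) and Mettl14 at 18.4 CPM (17.6 to 19.3). In ranks among all genes of the control library, Ythdc1 was at 806 and Mettl14 at 6425.

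**Figure D1:**
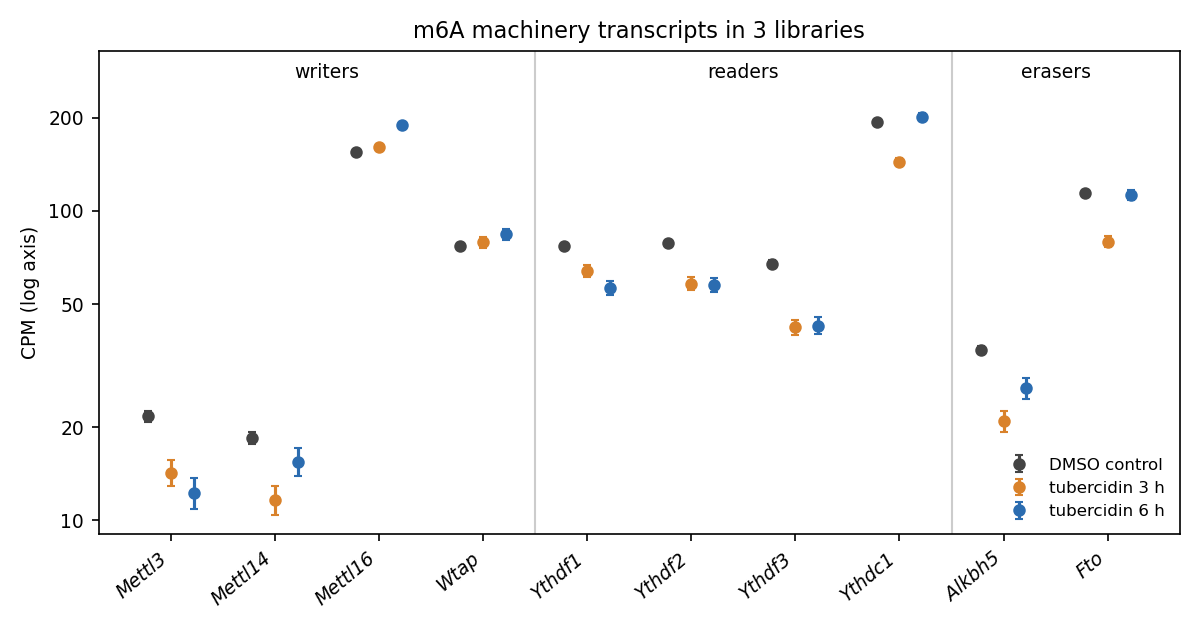
Level of each member in CPM (log axis) in the DMSO control, tubercidin 3 h and tubercidin 6 h libraries; points are summed counts of called cells and bars are exact 95% counting intervals, with 1 library per group. Mettl3, Mettl14, Ythdf1, Ythdf2, Ythdf3 and Alkbh5 lay lower in both treated libraries than in the control, and Mettl16 and Wtap did not. Ythdc1 and Fto were low at 3 h and near their control level at 6 h. As UMIs per cell, all 10 members were lower in both treated libraries, and so was the median gene.

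After 3 h of tubercidin, 8 of the 10 members had lower CPM than in the control and 2 did not, beside 72.6% of all genes lower. Each of the 8 had a counting interval below 0. No member was 2-fold higher or lower, beside 0.888% and 5.54% of all 7884 genes. Mettl14, Ythdf3 and Alkbh5 were at least 1.5-fold lower, 3 of 10, beside 24.5% of all genes, so that the members' share lies near the background. Alkbh5 was 1.67-fold lower, Ythdf3 1.59-fold and Mettl14 1.54-fold, while Mettl3, just outside the limit, was 1.49-fold lower. None was at least 1.5-fold higher, beside 3.61% of all genes. The median log2 ratio of the members, on the CPM + 1 scale used for all log2 ratios below, was -0.47, against -0.27 for all genes. The members ran from -0.74 to 0.05, and 7 of them lay below the median gene. Median-of-ratios and TMM factors moved the median of all genes by 0.23 and 0.19 at 3 h and left 0 members past 1.5-fold. Such a factor moves all genes of a library nearly alike, so positions relative to the median gene, given below, can hardly change with it. At 3 h 8 members were below the median gene with a doubled UMI minimum, a mitochondrial limit of 10% or UMIs per cell.

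After 6 h the picture split more widely. Here 7 members had lower and 3 had higher CPM than in the control, beside 60.3% and 39.7% of all genes. The members' log2 ratios ran from -0.78 for Mettl3 to 0.28 for Mettl16. Of the 7, Fto (-0.02) had a counting interval that held 0. Mettl3 and Ythdf3 were at least 1.5-fold lower, 2 of 10 beside 16.9% of all genes, again near the background. None was at least 1.5-fold higher, beside 7.06%, and none was 2-fold higher or lower, beside 2.33% and 4.41%. The members' median log2 ratio was -0.32 against -0.12 for all genes, and 6 members lay below the median gene. Under median-of-ratios and TMM factors Mettl3 and Ythdf3 were again past 1.5-fold at 6 h. With free RNA subtracted Mettl3 was, but Ythdf3, at -0.54, was not. Counted as UMIs per cell, which also carries the difference in depth, all 10 members were lower at both times. The median gene was lower too on that scale, with log2 ratios of -2.21 at 3 h and -2.60 at 6 h.

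**Figure D2:**
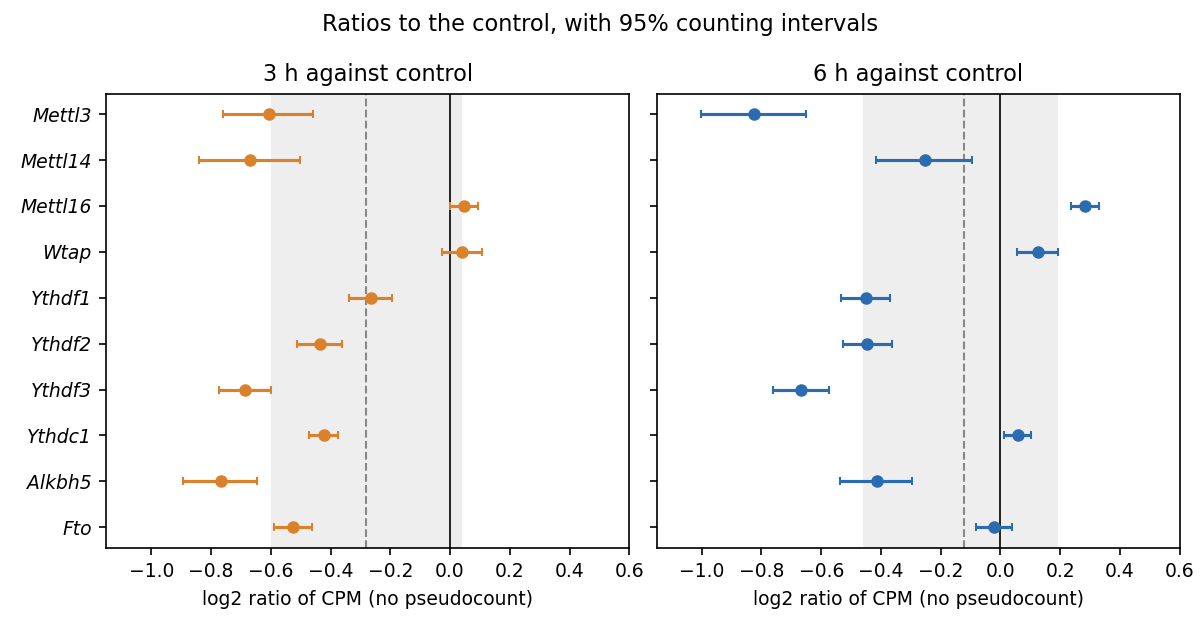
Log2 ratio of CPM without a pseudocount for each member at 3 h and 6 h against the control, with 95% counting intervals; the dashed line is the median of 7884 genes and the grey band runs from their lower to their upper quartile. Mettl3, Mettl14, Ythdf3 and Alkbh5 at 3 h and Mettl3 and Ythdf3 at 6 h lie to the left of the band. Mettl16 at both times and Wtap at 3 h lie to its right. Ratios of UMIs per cell are below 0 for all 10 members and for the median gene at both times.

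Among the writers, Mettl3 and Mettl14 separated from Mettl16 and Wtap. Mettl3 (ENSMUSG00000022160) was at 21.7 CPM in control cells, 14.2 CPM after 3 h and 12.2 CPM after 6 h. The control was highest, and the intervals of the treated libraries (12.9 to 15.6 and 10.9 to 13.7 CPM) overlapped each other but not that of the control. The direct log2 ratio of 6 h to 3 h was -0.20, and its counting interval (-0.43 to -0.0004) lay just below 0. Against the control the log2 ratio of Mettl3 was -0.57 at 3 h and -0.78 at 6 h, and 25.1% and 9.28% of genes lay lower still. The distance below the median gene was 0.30 after 3 h and 0.66 after 6 h. The gene lies at chr14:52294841-52305128 (GRCm38, minus strand) and overlaps the opposite-strand gene Tox4 over 1561 bp. Tox4 was at 44.1, 48.3 and 43.6 CPM, and how strand was used in counting is not given in the sources used here.

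Mettl14 (ENSMUSG00000028114) was at 18.4 CPM in control cells, 11.6 CPM after 3 h and 15.4 CPM after 6 h. It was lowest at 3 h, and the 6 h interval, 13.9 to 17.1 CPM, lay between the others without meeting either. Its log2 ratio was -0.63 at 3 h and -0.24 at 6 h. The gene lies at chr3:123368297-123386108 on the minus strand, with no overlapping listed gene.

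The ratio of these partners within a library does not depend on any scaling. There were 1.18 UMIs of Mettl3 per UMI of Mettl14 in control cells (interval 1.11 to 1.25), 1.23 after 3 h (1.06 to 1.42) and 0.793 after 6 h (0.679 to 0.924). Mettl3 thus outnumbered Mettl14 in the control and 3 h libraries, and the order was opposite in the 6 h library. The 6 h value rests on 302 and 381 UMIs.

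Mettl16 (ENSMUSG00000010554) was at 155 CPM in control cells, 161 CPM after 3 h and 189 CPM after 6 h. The 6 h library was highest, and its interval, 184 to 195 CPM, lay above both others. The log2 ratio was 0.05 at 3 h and 0.28 at 6 h, higher than the ratios of 75.8% and 80.8% of genes, and 0.32 and 0.40 above the median gene. Of UMIs given to the 4 writers, Mettl16 took 57.0% in control cells, 60.4% after 3 h and 62.9% after 6 h. Per UMI of Mettl3 and Mettl14 together there were 3.88 UMIs of Mettl16 in control cells (3.75 to 4.01), 6.22 after 3 h (5.77 to 6.72) and 6.83 after 6 h (6.31 to 7.42). The gene lies at chr11:74770830-74828525 on the plus strand and has the longest 3′ UTR of the members, 10767 bp.

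Wtap (ENSMUSG00000060475) varied least among the writers. It was at 77.1 CPM in control cells, 79.3 CPM after 3 h and 84.0 CPM after 6 h, log2 ratios of 0.04 and 0.12. The counting interval of the ratio held 0 at 3 h (-0.03 to 0.11) and lay above 0 at 6 h (0.05 to 0.19). Per UMI of Mettl3 and Mettl14 together it counted 1.92 UMIs in control cells, 3.07 after 3 h and 3.04 after 6 h. Its gene lies at chr17:12966796-12994169, minus strand.

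**Figure D3:**
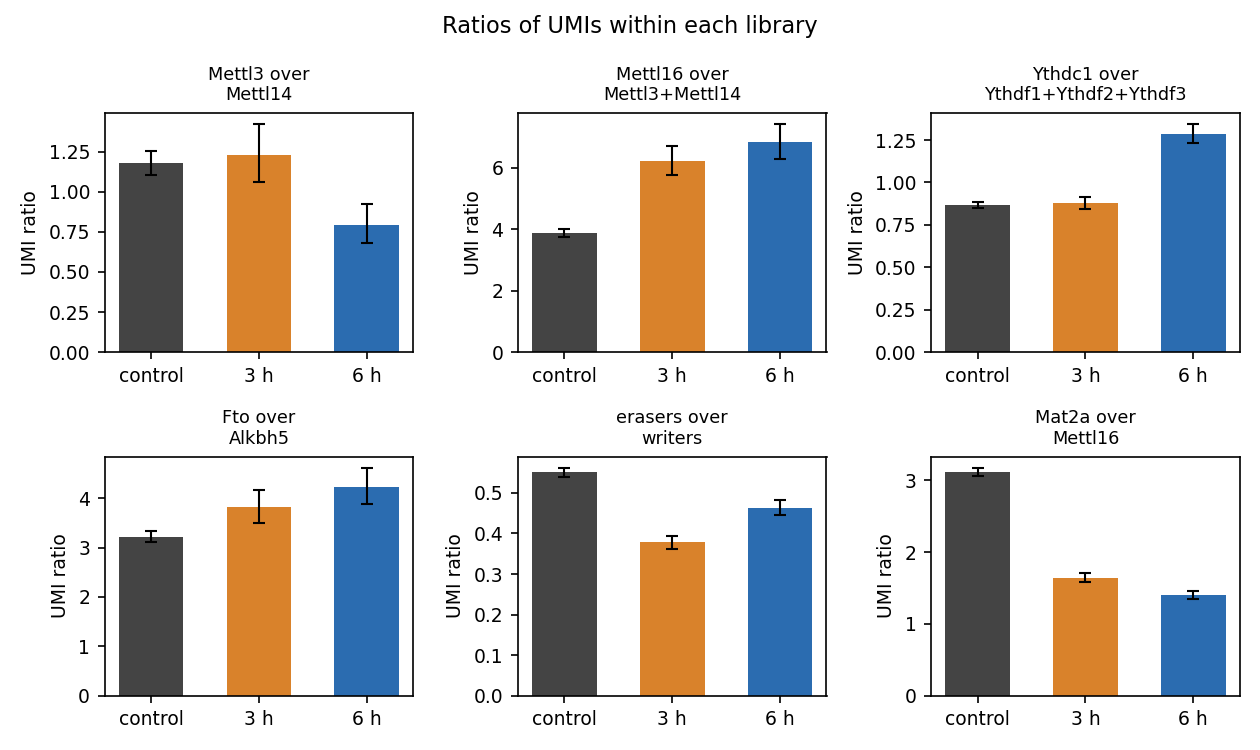
Ratios of UMIs of named members, and of Mat2a to Mettl16, within each library (bars, from 0) with exact 95% counting intervals; these ratios are the same under every scaling of a library, with 1 library per group. Mettl16 per core writer UMI was 3.88, 6.22 and 6.83, Ythdc1 per YTHDF UMI was 0.867, 0.879 and 1.29, and Mat2a per Mettl16 UMI was 3.12, 1.64 and 1.40, each in the order control, 3 h, 6 h.

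The Mat2a transcript, which carries the 5 motif copies shown above, was at 484 CPM in control cells, 264 CPM after 3 h and 265 CPM after 6 h. Both treated libraries were lower, by a log2 ratio of -0.87 each, and hardly differed from each other (-0.04 to 0.06). Over all genes 24.5% were at least 1.5-fold lower at 3 h and 16.9% at 6 h. Mat2a per UMI of Mettl16 was 3.12 in control cells, 1.64 after 3 h and 1.40 after 6 h, and a link between these transcripts was not tested.

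The promoters of Mettl3 and Mettl16, the writers farthest apart at 6 h, are given from RefSeq (GRCm38.p6), as windows around the start, so that their sequences can be read side by side. The table held 8 of the 10 members, without Mettl14 and Ythdf3. Capitals mark CCGGAAG (an ETS core) and ATGGCGG (a YY1 core), each searched on both strands; the motifs do not overlap here.
Mettl3, chr14:52305075-52305374, minus strand: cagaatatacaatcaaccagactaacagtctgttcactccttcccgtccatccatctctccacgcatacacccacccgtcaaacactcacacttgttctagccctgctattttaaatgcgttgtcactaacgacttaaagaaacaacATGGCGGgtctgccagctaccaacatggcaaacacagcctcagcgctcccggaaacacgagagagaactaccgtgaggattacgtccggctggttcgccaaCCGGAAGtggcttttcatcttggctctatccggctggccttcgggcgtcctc
Mettl16, chr11:74770613-74770912, plus strand: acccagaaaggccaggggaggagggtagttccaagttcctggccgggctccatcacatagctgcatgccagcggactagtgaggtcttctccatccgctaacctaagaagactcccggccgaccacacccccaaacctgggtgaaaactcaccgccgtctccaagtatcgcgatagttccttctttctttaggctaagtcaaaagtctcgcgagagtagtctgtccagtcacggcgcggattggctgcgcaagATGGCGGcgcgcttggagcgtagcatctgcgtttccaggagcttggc
ATGGCGG was present in both and in Ythdf1, 3 of 8 members, beside 4.19% of 27025 promoters. Of the 8, only Mettl3 had CCGGAAG, beside 9.12% of promoters. None of the 8 held TATAAA, beside 14.2% of promoters, and the members' windows held 17 to 37 CG pairs against a median of 7 over all. Other motifs searched lay nearer the background: GGGCGG in 5 of 8 beside 35.9%, CCAAT in 4 beside 37.9% and CACGTG in 1 beside 7.24%. The comparison is with all promoters and not with those of expressed genes alone.

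The YTHDF readers of the cytoplasm lay lower in both treated libraries. Ythdf3 (ENSMUSG00000047213) had the lowest ratios of the 3, at 67.6 CPM in control cells, 42.0 CPM after 3 h and 42.6 CPM after 6 h. The treated libraries did not differ beyond counting error (log2 ratio 0.02, -0.10 to 0.14), and both lay well below the control. Its log2 ratios were -0.67 and -0.65, or 0.40 and 0.53 below the median gene.

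Ythdf2 (ENSMUSG00000040025), the member best known for sending marked messengers to the CCR4-NOT deadenylase, was at 78.7 CPM in control cells, 58.1 CPM after 3 h and 57.8 CPM after 6 h. Again the treated libraries were alike within counting error (-0.11 to 0.09), with log2 ratios of -0.43 and -0.44 to the control. Ythdf1 (ENSMUSG00000038848) was at 77.1, 64.1 and 56.4 CPM, so that the 6 h library was lowest. Its log2 ratio of -0.26 at 3 h lay 0.01 above the median gene, and its ratio at 6 h was -0.44, 0.32 below the median gene.

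Together the YTHDF readers summed to 223 CPM in control cells, 164 CPM after 3 h and 157 CPM after 6 h. Within this pool Ythdf3 took 30.3% of UMIs in control cells (29.7 to 30.9%), 25.6% after 3 h (24.4 to 26.8%) and 27.2% after 6 h (25.8 to 28.6%). The share of Ythdf2 varied less, at 35.2%, 35.4% and 36.9%, and that of Ythdf1 was 34.5%, 39.0% and 36.0%. Ythdf3 thus had a smaller share of the pool in both treated libraries, and Ythdf1 a larger one at 3 h, beyond counting error. The genes lie at chr2:180904377-180920949 (Ythdf1, minus), chr4:132184912-132212303 (Ythdf2, minus) and chr3:16183212-16217037 (Ythdf3, plus).

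Ythdc1 (ENSMUSG00000035851), the nuclear reader, had another course. It was at 194 CPM in control cells, 144 CPM after 3 h and 202 CPM after 6 h. The 3 h library was the low one and the others lay close together, with log2 ratios of -0.42 after 3 h and 0.06 after 6 h. It was 0.48 higher at 6 h than at 3 h, and 0.25 and 0.26 higher under median-of-ratios and TMM factors, but 0.10 lower as UMIs per cell. Per UMI of the YTHDF readers there were 0.867 UMIs of Ythdc1 in control cells, 0.879 after 3 h and 1.29 after 6 h (1.23 to 1.34). The ratio was alike in the control and 3 h libraries and higher at 6 h. The gene lies at chr5:86804221-86836659 on the plus strand.

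Both erasers were lower at 3 h. Alkbh5 (ENSMUSG00000042650) was at 35.5 CPM in control cells, 20.9 CPM after 3 h and 26.7 CPM after 6 h. Its log2 ratio at 3 h, -0.74, was the lowest of the 10 members, and at 6 h it was -0.40. Fto (ENSMUSG00000055932) was at 115 CPM in control cells, 79.6 CPM after 3 h and 113 CPM after 6 h, log2 ratios of -0.52 and -0.02. The 6 h interval held 0 (-0.08 to 0.04), and the 3 h library alone stood apart. Alkbh5 lies at chr11:60536381-60558512 and Fto at chr8:91313525-91668439, both on the plus strand. Fto spans 354.9 kb against 10.3 to 57.7 kb for the other members, and whether intronic reads were counted is not given in the sources used here. It overlaps 4831440D22Rik and Gm3235 on the other strand, which stood at most at 8.47 CPM.

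Within a library, UMIs of the erasers per UMI of the 4 writers were 0.551 in control cells (0.540 to 0.562), 0.378 after 3 h (0.363 to 0.395) and 0.464 after 6 h (0.445 to 0.483). The control was highest and 3 h lowest, with no overlap of the intervals. Mettl16 and Wtap made up most of the writers' UMIs, and against Mettl3 and Mettl14 alone the ratio was 3.75, 3.90 and 5.04, so that the order turned: 6 h was highest and the intervals of the other libraries overlapped. Fto per UMI of Alkbh5 was 3.22, 3.81 and 4.23, so Fto made up most of the erasers' UMIs. Whether these include intronic reads is not known.

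Set directly against 3 h, the 6 h library had no member past 1.5-fold in either direction, beside 8.51% of all genes higher and 1.67% lower; at 2-fold these shares were 1.64% and 0.165%. The members' median log2 ratio was 0.16 and that of all genes 0.14. Fto (0.50), Ythdc1 (0.48), Mettl14 (0.39) and Alkbh5 (0.34) were the highest, and Mettl3 (-0.20) and Ythdf1 (-0.18) the lowest. In all, 7 members were above 0, beside 67.6% of all genes. Under median-of-ratios and TMM factors 5 members were above 0, and Wtap and Ythdf3 lay below it. As UMIs per cell 0 members were above 0, and the median gene was at -0.40. Relative to the median gene 5 were above and 5 below.

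For each member past 1.5-fold, the 3 named genes with the closest pair of log2 ratios at 3 h and 6 h were taken, over 3 libraries. For Mettl3 these were D11Wsu47e, Minpp1 and Zfp740, for Mettl14 Samd4b, Rnf111 and Zmym4, for Ythdf3 Ift81, Vps4a and Rfx3, and for Alkbh5 Hdac8, Sort1 and Ncoa1. The distances ran from 0.0061 to 0.0183 log2 units. With so few libraries many genes share any course.

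Other genes of the pathway were taken from lists. Of 19 further m6A writers, cofactors and readers, 3 were at least 1.5-fold lower at 3 h and 0 higher, and 2 were lower and 0 higher at 6 h. Over all genes 24.5% and 16.9% were lower by as much at these times, and 3.61% and 7.06% higher. The counts are thus not above the background. Their median log2 ratios were -0.34 and -0.20, against -0.27 and -0.12 for all genes. Among the 5 accessory subunits of the writer complex, Virma, its large scaffold, had the lowest ratio at 3 h, with 66.9, 39.3 and 59.9 CPM in the control, 3 h and 6 h, and log2 ratios of -0.75 and -0.16. Rbm15 had the highest at 3 h, -0.12. Rbm15b, an RNA-binding adaptor, was at 9.76, 6.19 and 4.62 CPM and had the lowest ratio at 6 h, -0.94, while Zc3h13 had the highest, -0.13. Of the 19 genes, Virma alone was at least 1.5-fold higher at 6 h than at 3 h, beside 8.51% of all genes.

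Of the 5 other m6A methyltransferases and partners none passed 1.5-fold. Over all genes 24.5% were lower by as much at 3 h and 16.9% at 6 h, and 3.61% and 7.06% higher. The ratios of the 5 genes ran from -0.47 (Zcchc4) to 0.23 (Mettl4) at 3 h and from -0.41 (Trmt112) to 0.32 (Mettl4) at 6 h. Among 9 other readers, Ythdc2 and Prrc2a were past 1.5-fold at 3 h, both at -0.66, and Prrc2a again at 6 h, at -0.82. Rbmx was highest at 3 h, at 0.08, and Igf2bp3 at 6 h, at 0.17. Rbmx has near-identical copies in the genome, so its count is uncertain.

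Among 5 partners of YTH readers, Srsf3, a splicing factor that binds YTHDC1, had the highest ratios (0.56 and 0.28) and Rida the lowest (-0.35 and -0.94). CNOT1, the scaffold through which YTHDF2 reaches the deadenylase, had Cnot1 ratios of -0.09 and 0.21. In the methyl donor cycle, 6 genes, Mat2a had the lowest ratio at both times and Ahcy the highest, 0.63 and 0.72. AHCY clears S-adenosylhomocysteine, the product of methyl transfer. Ahcy stood at 6.83, 11.1 and 11.9 CPM and has near-identical copies, so it is uncertain. Mat2b was also past 1.5-fold lower at 6 h, at -0.72.

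Transcripts described in stem cells as carrying m6A went in different directions. Of 7, 1 was at least 1.5-fold lower at 3 h and 3 were at 6 h, and 1 was higher at 6 h, beside 24.5% of all genes lower at 3 h and 16.9% lower and 7.06% higher at 6 h. Myc had the lowest ratios, with 16.2, 3.41 and 2.71 CPM and log2 ratios of -1.96 and -2.21. Klf4 (-1.21) and Nanog (-0.62) were the others lower at 6 h, and Lin28a, at 0.54 and 0.67, was the highest at both times. Methylation of these transcripts was not measured.

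Single cells held few UMIs of the core writers. In control cells Mettl3 had a mean of 1.12 UMIs and at least 1 UMI in 64.1% of cells, against 16.2% at 3 h and 9.81% at 6 h. These shares follow the number of UMIs per cell. With every cell thinned to 4000 UMIs, which left out 0, 122 and 284 cells, the shares were 7.43% in control cells (6.33 to 8.66%), 5.71% after 3 h (4.78 to 6.75%) and 5.22% after 6 h (4.41 to 6.14%). Cells were not clustered, so no share from a cell type that lacks these genes is given, and how much free RNA adds to these shares was not tested.

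At this equal depth Ythdc1 was found in 54.2% of control cells, 42.7% at 3 h and 53.9% at 6 h. As in its CPM, the 3 h library was low and the others lay close together, but here the control and not the 6 h library was highest. Mettl16 was found in 46.2%, 47.7% and 50.9%, and Fto in 36.5%, 27.7% and 33.5%. Alkbh5 was found in 13.6%, 7.36% and 11.1%. The share of Ythdf3 was 24.1%, 15.2% and 14.8%. The thinned shares stood near those of counts spread evenly at random over cells: the widest gap was that of Ythdc1 at 3 h, where 45.1% would follow. Thinned means were at most 0.822 UMIs per cell, so low that this nearness cannot show an even spread. Unthinned, the widest gap was again that of Ythdc1 at 3 h, found in 75.5% of cells where 83.9% would follow. Unthinned cells also differ in UMIs per cell. Thinned cells had a median of 3 members with a UMI in the control and 2 at each treated time, and 96.8%, 92.4% and 94.3% of them had a UMI of at least 1 member. Unthinned, the medians were 9, 5 and 4. Mettl3 and Mettl14 were found together in 37.1% of unthinned control cells (35.0 to 39.3%), where 35.8% would follow from their separate shares.

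Within each library, cells were also split by UMIs into 3 equal parts, and the lowest part was compared with the highest. No member passed 1.5-fold in any library, beside 0.799% of all genes in control cells, 2.64% after 3 h and 0.812% after 6 h. The 3 h library differed most. There Ythdf1 was at 85.4 CPM in the cells with fewest UMIs and 59.3 CPM in those with most, a log2 ratio of 0.52 (0.36 to 0.69), and Ythdf3 at 55.2 and 40.3 CPM, a log2 ratio of 0.45 (0.25 to 0.66). The median of all genes in that library was 0.11. In the control Ythdf3 had the opposite sign, 63.9 against 73.2 CPM (-0.28 to -0.11), and Ythdf1 had an interval that held 0. Fto was lower in the cells with fewest UMIs in the control, at 101 against 126 CPM (-0.39 to -0.25), and at 6 h, at 106 against 122 CPM (-0.36 to -0.07).

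**Figure D4:**
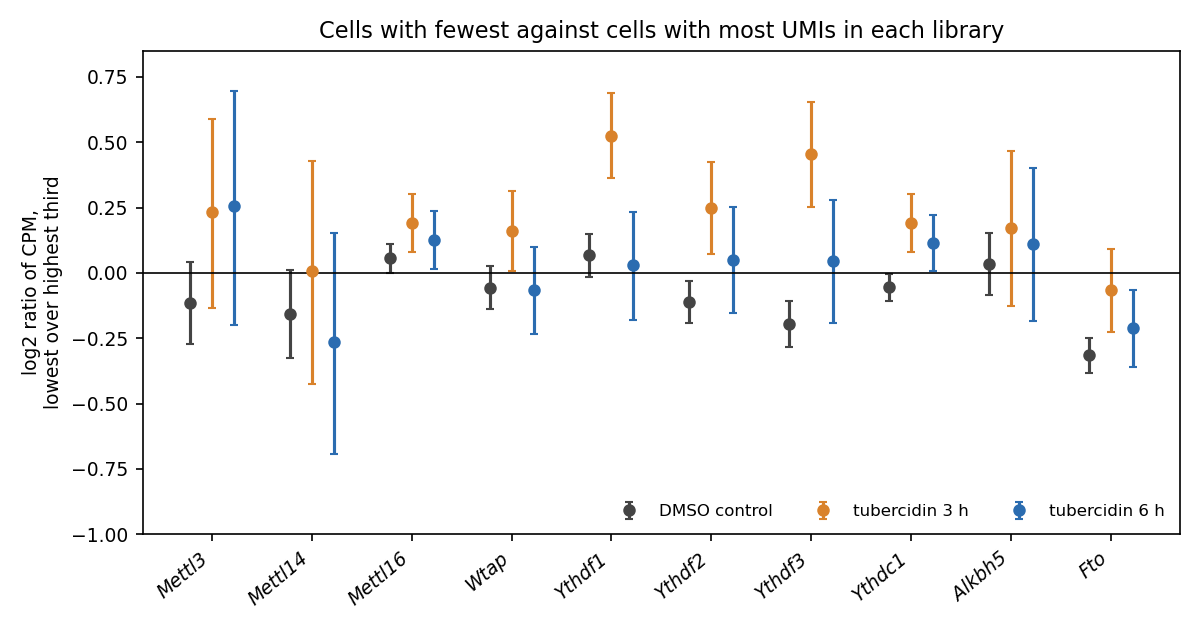
Log2 ratio of CPM between the cells with fewest and those with most UMIs, when cells are split into 3 equal parts, for each member in each library, with 95% counting intervals. In the 3 h library Ythdf1 and Ythdf3 lie highest, at 0.52 and 0.45 on the CPM + 1 scale, whereas Fto lies below 0 in the control and 6 h libraries.

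To read free RNA, barcodes with ranks past 5000 and no further than 15000 were summed; none was a called cell, with medians of 343, 210 and 138 UMIs. Mettl16 was lower there than in cells in every library, at 113, 109 and 107 CPM outside against 155, 161 and 189 CPM inside. Ythdc1 was too, at 152, 96.4 and 171 CPM. In the control Ythdf3 was higher outside, at 99.1 against 67.6 CPM, but at 3 h it was lower, at 28.5 against 42.0 CPM. The median log2 ratio of the members, outside against inside, was -0.003 in control cells, -0.57 after 3 h and -0.21 after 6 h, beside -0.25, -0.40 and -0.36 for all genes.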

How the data were processed

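Polyadenylated RNA of single cells was barcoded on the 10x Genomics Chromium system, according to the labels. The authors deposited raw UMI counts per gene and barcode, unfiltered, and per the file headers Cell Ranger 7.1.0 wrote them; mm10 is named in the submitters' processing notes. The annotation and the use of intronic or antisense reads are not given in the sources used here. A cell needed 1/10 of the UMI count found at percentile 99 of its library's 3000 largest barcodes (11034, 2961 and 2107 UMIs), 500 genes or more, and a mitochondrial share not above 20%, a limit that removed 0, 7 and 1 barcodes. Doublets were kept and no caller was run. Cells were not clustered. Summed counts became CPM, and libraries were compared by log2 ratios after adding 1 CPM; intervals are exact conditional binomial (ratios, without pseudocount), Poisson (CPM) or Clopper-Pearson (shares). A gene at 0 could reach 0.0286, 0.100 or 0.122 CPM (3 counts) in the control, 3 h and 6 h. Named by rule were all 10 members, the extremes of each list (mean of 1 CPM or more), list genes past 1.5-fold at both times, and the 3 nearest genes. Tox4, 4831440D22Rik and Gm3235, the within-library ratios beyond erasers over writers, and the motifs were chosen after values were seen, and so were some list genes past 1.5-fold at 1 time and Cnot1. The members and lists were chosen with earlier results of these data known. Gene positions come from GENCODE M21, which held 32235 of the 32285 identifiers. Statistics were tested on simulated counts. TMM factors came from edgeR 4.0.16 in R 4.3.3; the rest used scipy 1.17.1, numpy 2.4.6 and pandas 2.3.3 in Python 3.11.15, with matplotlib 3.10.9.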

Additional observations from a re-analysis of the deposited data

Results flagged for a closer look

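Ythdc1 drew attention because its ratios to the control lay on opposite sides of 0 at the 2 times. They were -0.42 at 3 h and 0.06 at 6 h, and the median gene was at -0.27 and -0.12. On the CPM scale each lay beyond counting error, but the 6 h ratio was small, 1.04-fold, with an interval of 0.01 to 0.10. The difference between the times was not tested, since each is 1 library. Signs were the same under median-of-ratios factors (-0.18 and 0.07) and TMM factors (-0.23 and 0.03), for which no counting intervals are given. As UMIs per cell both ratios were below 0, at -2.42 and -2.52.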

How the results depend on the processing

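Scaling moved the values most. The members' median log2 ratio at 3 h, -0.47, was -0.24 under median-of-ratios factors, -0.29 under TMM factors and -2.36 as UMIs per cell, with 0, 0 and 10 members at least 1.5-fold lower in place of 3. At 6 h UMIs per cell gave -2.67 and 10 members lower in place of 2. Between 6 h and 3 h the median, 0.16, was -0.066, -0.062 and -0.40 under these scalings, and UMIs per cell put 1 member 1.5-fold lower. With equal weight for each cell the 3 h median was -0.39, with 1 member lower. Subtracting free RNA left 2 members lower at 3 h and 1 at 6 h, and an eraser to writer ratio of 0.539 in the control. Ythdf3, at -0.52 and -0.54, was then past 1.5-fold at neither time. Unthinned, 100%, 99.6% and 98.2% of cells had a member UMI. Over all genes at 3 h, 285 higher and 1929 lower by 1.5-fold became 711 and 891 under median-of-ratios and 585 and 1062 under TMM factors; between 6 h and 3 h, 671 and 132 became 236 and 479, and 242 and 468. At 2-fold, 3 h gave 70 and 437, against 140 and 160, and 126 and 198. Without a filter on low genes 846 and 3568 genes passed 1.5-fold at 3 h and 1978 and 2529 at 6 h; with a mean of at least 50 CPM, 119 and 552, and 205 and 339. UMIs per cell, set on the scale of the control's CPM with the same pseudocount and filter, put 0 genes higher and 5825 lower by 1.5-fold at 3 h, 1 and 5829 after 6 h, and 24 and 1494 from 3 h to 6 h. The number of genes that passed the filter on this scale is not given, so these counts are not shares of the 7884 genes. Mettl3, near the limit at 3 h, passed it with the doubled UMI minimum, the 10% mitochondrial limit, the 0.1 CPM pseudocount or without the cells above 2 times the median UMIs. All 30 member ratios stayed within their counting intervals under both other UMI minima, the 10% mitochondrial limit, removal of cells above 2 times the median UMIs, the total without mitochondrial genes and the 0.1 CPM pseudocount. No paired analysis was possible because each group is 1 library. The 302 to 425 UMIs of Mettl3 and Mettl14 in the treated libraries limit their precision.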
